A study of Mus musculus with 24 samples.

Results

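Livers of newborn clones from the 20th generation of serial recloning (G20) were compared with livers of newborn first-generation clones (CC), on 8 single-colour microarrays of the 24 in the series. The members were taken by sample title, 4 arrays of G20 liver and 4 of CC liver. The series addresses the accumulation of reprogramming errors over repeated cloning, and this comparison sets late clones against early clones in the same organ. G20 animals descended from a cumulus cell, the somatic cell type that surrounds the oocyte, through 20 rounds of nuclear transfer. CC animals were clones made directly from cumulus cells. NC animals, the controls of the series, were conceived by intracytoplasmic sperm injection, and their 4 liver arrays are given beside the results. All 3 groups were female neonates of a cross of 129/Sv with C57BL/6 x DBA2 hybrids, so no group was free of embryo manipulation. The 4 G20 livers carry one and the same source name in the labels, whereas the CC livers carry numbered ones, and it is not given whether the 4 G20 arrays came from 4 separate animals. The p-values therefore measure the spread between these arrays, which may be technical for G20.

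The newborn liver is in transition. Before birth it is a site of blood formation and secretes fetal proteins such as alpha-fetoprotein. Around and after birth, hepatocytes switch on genes for lipoproteins, protease inhibitors, drug metabolism and fat synthesis. Imprinted genes, which are expressed from the maternal or the paternal allele alone and depend on DNA methylation marks, are known as a weak point of cloning by nuclear transfer.

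Levels are log2 processed signal minus the 75th percentile of the same array, and differences are G20 minus CC in log2 units with the standard error (SE) of the limma fit, so that 1 unit is a 2-fold change. The samples were liver by their markers. The level of Alb, which encodes albumin, was 8.88 in G20 liver and 7.45 in CC liver, against -4.15 in G20 brain and -2.74 in CC brain. Snap25, a neuronal synaptic gene, was well above background on 0 of 4 G20 and 1 of 4 CC liver arrays. The Alb value of CC comes from 1 array, since the scanner software marked its spots as outliers on the other 3.

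The 2 groups were not hybridised together. G20 and NC livers were scanned in 1 session and CC livers 221 days later, and each group lay on a slide of its own, so clone generation, session and slide cannot be told apart in G20 minus CC. The 75th percentile of signal was 440.5 to 561.2 for G20, 241.6 to 270.0 for CC and 275.9 to 340.8 for NC, and 60.5% to 62.9%, 53.6% to 56.4% and 57.7% to 59.6% of probes were well above background. RNA spikes added at labelling responded with a log-log slope of 1.00 to 1.01 for G20 and 0.833 to 0.849 for CC, against 1.00 to 1.02 for NC. After centring, the spikes themselves differed between G20 and CC by -1.44 to 0.87 in log2 units. G20 and NC shared the session, and G20 minus NC is given beside most results. That difference uses the same G20 arrays, so it is a second reading of G20 and not independent of the first. Genotype differences between the donor of the G20 line and the other animals could enter both differences, and were not tested.

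The deposited value matrix could not serve as a second source. Over 20607 probes with a value on every liver array, the SD of G20 minus CC was 0.571 in the scanner values and 0.0983 in the matrix, and 97.9% of probes lay within 0.25 of 0 in the matrix, against 43.0% in the scanner values. G20 and NC columns of the matrix were the scanner signal times about 1 factor per array (SD of the log2 ratio over probes 0.0123 to 0.0554). CC columns carried an additional factor for each probe (SD 0.627 to 0.657) that followed the scanner's own G20 minus CC difference with a correlation of 0.988 across probes. That correlation follows from the small SD of G20 minus CC in the matrix and is not separate evidence. The matrix thus holds CC liver values shifted onto the G20 level probe by probe, by a step that no label or file header describes. Of 15935 genes tested in the matrix, 31 (0.195%) were called by limma, with 239 under an unadjusted p of 0.05. All 31 had a missing value on some array, and 0 were called in the same direction by the scanner values.

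**Figure D1:**
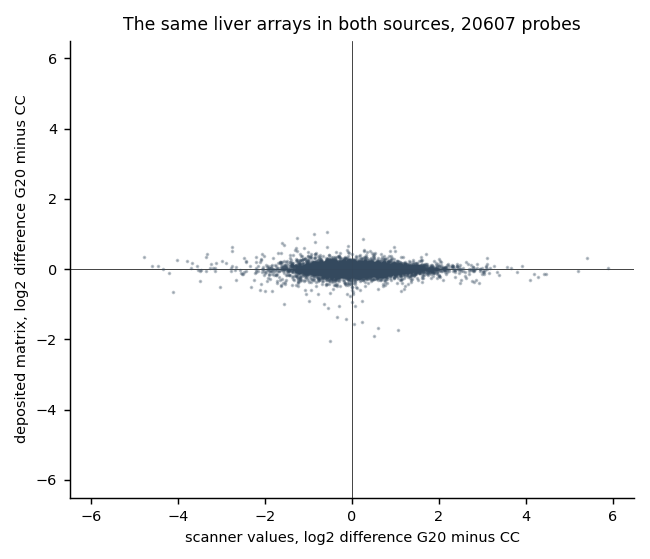
Difference G20 minus CC in liver for 20607 probes, from the scanner values (x axis, log2) and from the deposited matrix of the same arrays (y axis, log2); each point is a probe. The scanner differences have an SD of 0.571 and the matrix differences lie along 0 with an SD of 0.0983.

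In the scanner values, 7567 of 16655 genes (45.4%) differed between G20 and CC liver (limma, Benjamini-Hochberg adjusted p under 0.05), 3950 (23.7%) higher and 3617 (21.7%) lower in G20. Of these, 1629 (9.78% of all genes) differed by at least 2-fold, and the median difference of all genes was -0.01. Centring on the array median instead moved that median to -0.15 and the split to 2886 higher and 5243 lower. The arrays of the groups did not overlap for 6770 genes (40.6%). G20 minus NC, within the session, gave 1138 calls among the same genes (6.83%), with 3.93% higher and 2.9% lower, and CC minus NC, across sessions, gave 6803 of 16656 (40.8%). With normexp background correction, an alternative to the scanner's own, 2270 genes (13.6%) were called, 6.98% higher and 6.65% lower.

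Different probes of a gene gave a measure of how far a G20 minus CC difference belongs to the gene. Some of these probes overlap in position, so their agreement counts for less. Among the genes named below, this holds for the 2 probes of Apoc3, Eif4ebp3, Serpina4-ps1, Snrpn, Ogg1 and Col2a1. It also holds for 2 probes of Gcnt1, and the stretches spanned by the 2 probes of Disc1 and of Rpl35a overlap as well. Of 5358 genes with at least 2 probes, 577 (10.8%) had every probe called in 1 direction, and 564 (10.5%) had probes called in opposite directions. In G20 minus NC, 101 genes (1.89%) had every probe called in 1 direction and 5 (0.0933%) had probes called in opposite directions. Over 4600 genes whose probes were well above background on all 12 liver arrays, the second probe took the sign of the brighter one for 56.9% of genes in G20 minus CC and for 66.9% in G20 minus NC (r across genes 0.25 and 0.64, over probes that share arrays). The agreement grew with size up to a difference of 2. Where the brighter probe differed by 0.5 to 1, the second had the same sign for 62.8% of 874 genes in G20 minus CC, and for 91.6% of 226 genes in G20 minus NC. Where it differed by 1 to 2, the shares were 74.4% of 172 genes and 97.4% of 39 genes. At 2 or more they were lower, 66.7% of 21 genes and 88.9% of 9 genes.

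**Figure D2:**
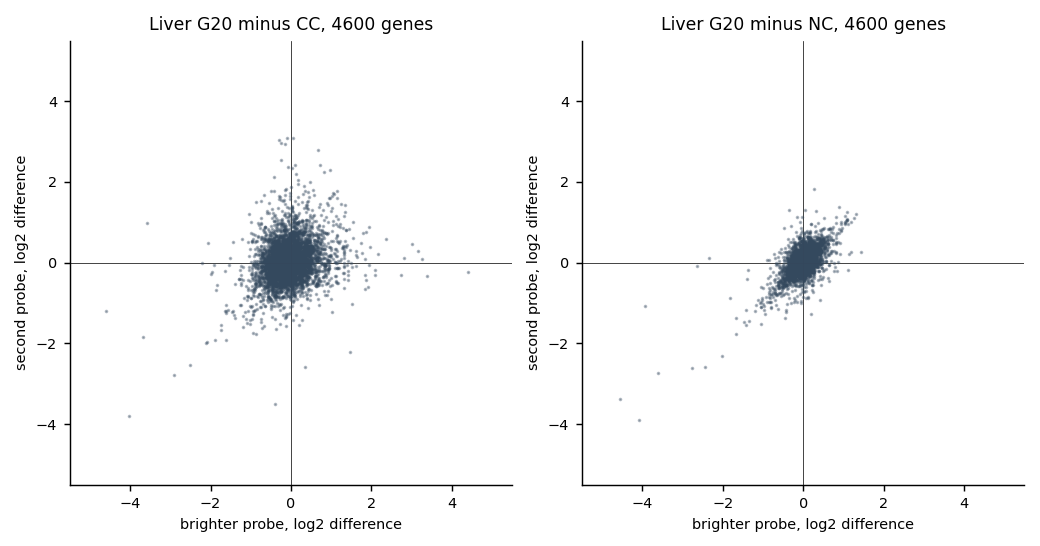
Log2 difference by the brighter probe (x axis) and the second probe (y axis) of 4600 genes, for G20 minus CC (left) and G20 minus NC (right) in liver; each point is a gene. The 2 probes share their sign for 56.9% of genes on the left and 66.9% on the right.

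No gene met the condition first set for naming genes, a call in both sources, so genes are named here by the same rule without the matrix. By this rule 460 genes with a gene symbol had at least 2 probes, every probe called in 1 direction, and G20 and CC arrays that did not overlap, 225 higher and 235 lower in G20. For 40 of these, 17 higher and 23 lower, every probe was also called in the same direction in G20 minus NC. Dropping the matrix and singling out these 40 were choices made after the values were seen. Of the 12 largest falls with at least 2 probes 9 were among the 40, and of the 12 largest rises 1 was.

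Genes of plasma lipoproteins made up one group of falls. Apoc3 encodes apolipoprotein C-III, an inhibitor of triglyceride clearance, and its probe lay on chromosome 9 at 45984265 to 45984324 (mm8). Its level was 1.6, 0.86, -0.14 and -0.26 on the G20 arrays, against 4.31, 3.22, 4.99 and 5.62 on the CC arrays and 5.26, 5.01, 4.44 and 3.72 on the NC arrays. The G20 arrays lay below all CC and NC arrays, and the difference from CC was -4.02 ± 0.55 (SE, n = 4 arrays a group, limma adjusted p = 0.00013), a 16.2-fold lower signal, with -3.81 by the second probe. That probe, at 45984275 to 45984334, overlaps most of the first. Apoa4, for apolipoprotein A-IV, which is carried on chylomicrons and high-density lipoprotein, had levels of -4.59, -6.01, -6.26 and -5.55 in G20, against 0.01, -3.53, -0.57 and 0.72 in CC. It was well above background on 4 of 4 CC arrays but on 1 of 4 G20 arrays, and the difference was -4.76 ± 0.86 (limma adjusted p = 0.000944), or -2.36 with normexp. With 3 of 4 G20 arrays at background, its size is uncertain. Apoa5, for apolipoprotein A-V, an activator of triglyceride breakdown, had 2.84, 2.85, 2.18 and 3.18 in G20, against 6.04, 4.75, 5.65 and 6.26 in CC. It fell by 2.91 and by 2.77 on its 2 probes. Against NC the differences of Apoc3, Apoa4 and Apoa5 were -4.09, -4.66 and -2.45, each called.

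These 3 genes are neighbours. In genome order the measured genes around them run Sik3, Apoa1, Apoc3, Apoa4, Apoa5 and Zpr1. Apoa1, which encodes the main protein of high-density lipoprotein, fell by 0.45 ± 0.09 (limma adjusted p = 0.00172) and was not called with normexp, and the flanking genes Sik3 and Zpr1 had differences of -0.07 and -0.14 that did not pass the test. Against CC the list of apolipoproteins as a whole had no such fall. Of 20 measured apolipoproteins, 5 rose and 6 fell (median -0.14), near the 23.7% and 21.7% of all genes. Against NC 0 rose and 4 fell, where 3.93% and 2.9% of all genes did. The 250 bases before the RefSeq starts of Apoa4 and Apoa5 (GRCm38.p6, plus strand, chr9:46240594-46240843 and chr9:46268358-46268607) are shown because both genes lie in the stretch that fell, and RefSeq's table gave no entry for Apoc3. Capitals mark matches to 2 motifs searched on both strands, TATAAA (the TATA box) and CAAAGNNCA (a core of the HNF4 site). They do not overlap each other.
Apoa4: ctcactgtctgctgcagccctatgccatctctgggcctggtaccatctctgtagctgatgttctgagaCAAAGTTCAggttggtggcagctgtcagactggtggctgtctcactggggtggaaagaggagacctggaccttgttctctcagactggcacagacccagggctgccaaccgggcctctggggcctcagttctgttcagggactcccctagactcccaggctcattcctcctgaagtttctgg
Apoa5: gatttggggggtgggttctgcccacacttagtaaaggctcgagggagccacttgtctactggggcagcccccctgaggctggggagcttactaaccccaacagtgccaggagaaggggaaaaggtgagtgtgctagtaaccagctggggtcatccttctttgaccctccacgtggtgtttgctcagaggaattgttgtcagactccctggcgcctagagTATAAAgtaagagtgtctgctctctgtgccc
The Apoa4 window held CAAAGTTCA, a match to CAAAGNNCA found in 5.49% of 32851 such windows, from 182 to 174 bases before the start. The Apoa5 window held TATAAA, found in 12.4% of windows, from 31 to 26 bases before the start. A match is a description of these letters and not evidence that a factor binds there.

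**Figure D3:**
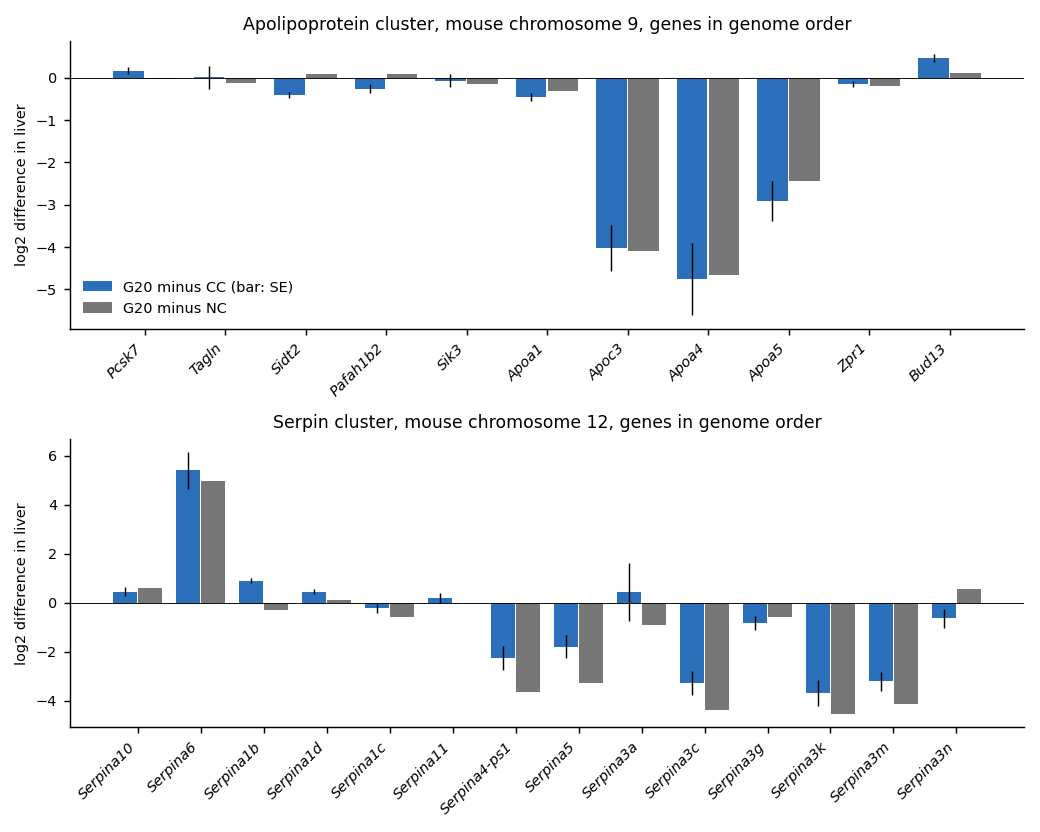
Liver log2 differences G20 minus CC (blue, with SE) and G20 minus NC (grey) of measured genes in genome order along the apolipoprotein cluster of chromosome 9 and the serpin cluster of chromosome 12. Apoc3, Apoa4 and Apoa5 stand at -4.02, -4.76 and -2.91 against CC, and Serpina6 at 5.41 within a cluster in which Serpina3c, Serpina3k and Serpina3m stand between -3.20 and -3.69.

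Protease inhibitors of plasma moved in both directions. Mug1 and Mug2 encode murinoglobulins, rodent plasma proteins that trap proteases and are relatives of alpha-2-macroglobulin. Mug1 had levels of -2.59, -2.05, -1.10 and -2.66 in G20, against 2.53, 1.95, 3.12 and 3.19 in CC and 3.82, 3.72, 3.87 and 1.56 in NC. All G20 arrays lay below all others, and the difference from CC was -4.80 ± 0.52 (limma adjusted p = 2.64e-05), 27.8-fold lower. Mug2 fell by 4.12 and 4.09 on its 2 probes, measured on 3 of 4 CC arrays by the brighter one. Against NC, Mug1 and Mug2 differed by -5.34 and -5.23. A2m, the related gene beside them, differed by 0.41 and did not pass the test. The probes of Mug1 and Mug2 may share targets, since these genes are close copies, and this was not tested. The 250 bases before their RefSeq starts (GRCm38.p6, plus strand, chr6:121838291-121838540 and chr6:122006548-122006797) are shown because the copies fell together, with the longest run of letters they share, 52 bases, in capitals.
Mug1: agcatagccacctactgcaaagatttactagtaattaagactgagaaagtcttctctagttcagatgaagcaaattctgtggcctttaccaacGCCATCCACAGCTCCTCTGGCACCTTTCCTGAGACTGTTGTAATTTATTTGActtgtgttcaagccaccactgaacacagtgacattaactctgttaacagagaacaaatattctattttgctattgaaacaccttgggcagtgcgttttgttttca
Mug2: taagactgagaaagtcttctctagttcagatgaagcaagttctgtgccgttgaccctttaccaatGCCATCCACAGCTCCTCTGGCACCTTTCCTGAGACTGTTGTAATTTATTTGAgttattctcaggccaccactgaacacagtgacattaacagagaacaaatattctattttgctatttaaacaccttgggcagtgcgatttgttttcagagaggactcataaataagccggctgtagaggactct
The run began 157 bases before the start of Mug1 and 185 bases before that of Mug2. Neither window held either motif.

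The serpins are a family of protease inhibitors, some of which carry hormones instead. Serpina3k had levels of 2.65, 3.51, 2.98 and 1.16 in G20, against 6.16, 5.0, 6.74 and 7.16 in CC. It fell by 3.69 ± 0.55 (limma adjusted p = 0.000247) and by 1.85 on its second probe, and lost its call with normexp (adjusted p = 0.056). Serpina3m fell by 3.20, Serpina3c by 3.28, Serpina5 by 1.79 and Serpina4-ps1 by 2.26, and against NC these 5 genes differed by -3.28 to -4.55. Serpina3n, in the same cluster, had a difference of -0.64 that did not pass the test. Members of the Serpina3 group are near-identical in sequence, so their probes may share targets, which was not tested. Serpina6, which encodes corticosteroid-binding globulin, the carrier of corticosterone in blood, went the other way. Its probe, at 104047720 to 104047779 on chromosome 12 (mm8), read 4.44, 4.95, 5.56 and 6.20 in G20, against -1.45, 1.05, 0.37 and -0.44 in CC and -0.80, -0.18, -0.44 and 2.65 in NC. Every G20 array lay above every other, and the rise of 5.41 ± 0.74 (limma adjusted p = 0.000138), 42.4-fold, was the highest among the 12 named genes with 1 probe. It rests on that 1 probe. Serpina7, for thyroxine-binding globulin, the carrier of thyroid hormone, rose by 1.53 ± 0.36 against CC and was 2.69 higher than NC. Of 32 measured serpins and other protease inhibitors, 12 rose and 8 fell, beside 23.7% and 21.7% of all genes. Against NC 6 rose and 5 fell, where 3.93% and 2.9% of all genes did.

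Enzymes of drug and steroid handling were also among the largest falls. Sult3a1 encodes a sulfotransferase, and its level was -6.40, -5.31, -5.20 and -6.93 in G20, against 1.47, 1.52, 0.66 and 1.12 in CC. It was not well above background on any G20 array, so the fall was at least 121-fold, set against the dimmest measurable signal of each G20 array. NC livers varied widely for it, with 2.26, -2.0, 2.20 and -1.32, and all lay above the G20 arrays. Cyp3a25, a cytochrome P450 of the drug-metabolising CYP3A family, fell by 2.52 and 2.53 on its 2 probes and was 2.75 lower than NC, called in both. Cyp4a12a, a fatty acid hydroxylase, fell by 3.56 ± 0.24 (limma adjusted p = 6.29e-07), and Ces3b, a carboxylesterase, fell by 3.71 ± 0.39 (adjusted p = 1.96e-05). Ugt1a1, which conjugates bilirubin, fell by 2.06, and Ugt2a3, another glucuronosyltransferase, by 1.31. Against NC, Cyp4a12a, Ces3b, Ugt1a1 and Ugt2a3 differed by -4.83, -3.30, -1.97 and -2.85, all called. Cyp2b9, of the CYP2B family, rose by 1.19 ± 0.20 and was 1.51 higher than NC. Cyp2b10, of the same family, was not well above background on any CC array and rose at least 3.01-fold, but its difference was -0.54 with normexp. Against CC the lists as wholes were mixed. Of 39 measured cytochrome P450 genes 8 rose and 8 fell, and of 37 conjugating enzymes 10 rose and 7 fell, shares near the 23.7% and 21.7% of all genes. Against NC 4 P450 genes rose and 10 fell (median -0.42), and 2 conjugating enzymes rose and 5 fell, where 3.93% and 2.9% of all genes did. Of 20 bile acid and liver transporters 0 rose and 8 fell (median -0.61), and against NC 1 rose and 1 fell.

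Some other plasma proteins of the hepatocyte were called against both CC and NC, in either direction. Orm2 and Orm1 encode the acute phase protein alpha-1-acid glycoprotein. Orm2 fell by 3.51 ± 0.65 (limma adjusted p = 0.00111) and Orm1 by 2.67 ± 0.67 (adjusted p = 0.00707), and against NC they differed by -3.73 and -3.98. Mbl2, for a mannose-binding lectin of complement activation, fell by 1.66 and was 2.14 lower than NC, and lost its call with normexp (adjusted p = 0.0822). Saa4, a serum amyloid A gene, rose by 1.05 ± 0.16 and was 1.32 higher than NC. Among 27 acute phase genes 5 rose and 5 fell against CC, each a smaller share than over all genes. Against NC 4 rose and 4 fell, where 3.93% and 2.9% of all genes did.

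Fat synthesis genes were lower in G20 mainly in the comparison with NC. Of 24 measured, 0 rose and 10 fell against NC (median -0.99), where 3.93% and 2.9% of all genes did. Against CC 1 rose and 7 fell (median -0.42), the falls not far above the 21.7% of all genes, and with normexp 1 rose and 2 fell. Thrsp, a lipogenic gene induced by thyroid hormone and feeding, had levels of -4.22, -2.45, -0.06 and -3.82 in G20, against 1.35, -0.46, -0.23 and -0.08 in CC and 2.88, 2.35, 2.10 and 2.30 in NC. G20 and CC overlapped at 1 G20 array, and the fall was 2.78 ± 0.75 (limma adjusted p = 0.01). Me1, malic enzyme, fell by 1.19, and Elovl5, a fatty acid elongase, by 1.07, a call lost under 7 of the alternatives tried. The exception was Acly, ATP citrate lyase, which rose by 1.14 against CC and had a G20 minus NC difference of -0.74 that did not pass. Of 25 cholesterol synthesis genes 7 rose and 1 fell against CC (median 0.41), while against NC 1 rose and 1 fell (median -0.34). Hmgcs1, the synthase at the head of the pathway, rose by 1.05 against CC and differed by 0.02 from NC, and Cyp51, a demethylase of the pathway, rose by 1.30, which did not pass with normexp (adjusted p = 0.081).

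In the growth hormone and IGF axis 8 of 25 measured genes rose and 3 fell against CC, beside 23.7% and 21.7% of all genes. Against NC 0 rose and 6 fell, where 3.93% and 2.9% of all genes did. Igf1, insulin-like growth factor 1, fell by 1.07 ± 0.22 (limma adjusted p = 0.00211) by its brightest probe and was 1.21 lower than NC, with -0.01 and -0.68 by its other probes. Socs2, a feedback inhibitor of growth hormone signalling, fell by 1.07, and Igfbp5, an IGF-binding protein, by 1.39. Against NC they were 1.05 and 1.01 lower (both called). Igf1 and Socs2 were not called with normexp.

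Outside the secreted proteins, Gcnt1 had the largest fall by the brightest probe among the 24 named genes with at least 2 probes. It encodes a glucosaminyltransferase that builds core 2 O-glycans. Its brightest probe, at 17393316 to 17393375 on chromosome 19 (mm8), read -1.31, -1.76, -1.74 and -1.72 in G20, against 2.56, 2.41, 3.49 and 3.43 in CC and 2.06, 2.69, 1.74 and 2.75 in NC. The G20 arrays lay close together and far below the rest, with a fall of 4.61 ± 0.28 (limma adjusted p = 3.49e-07). Its other probes, which overlap each other in position, fell by 1.15 and 1.19, so the probes shared the direction and not the size. In brain, G20 minus CC for Gcnt1 was -4.02, and liver and brain did not differ by the interaction test (adjusted p = 0.321). Rgs5, a regulator of G-protein signalling found in pericytes, fell by 2.76 and 3.01 on its 2 probes, and Ddo, D-aspartate oxidase, by 3.0 and 1.70. Both were called lower than NC by the brightest probe, by 2.5 and 2.90, while the second Ddo probe gave -1.14, which did not pass.

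**Figure D4:**
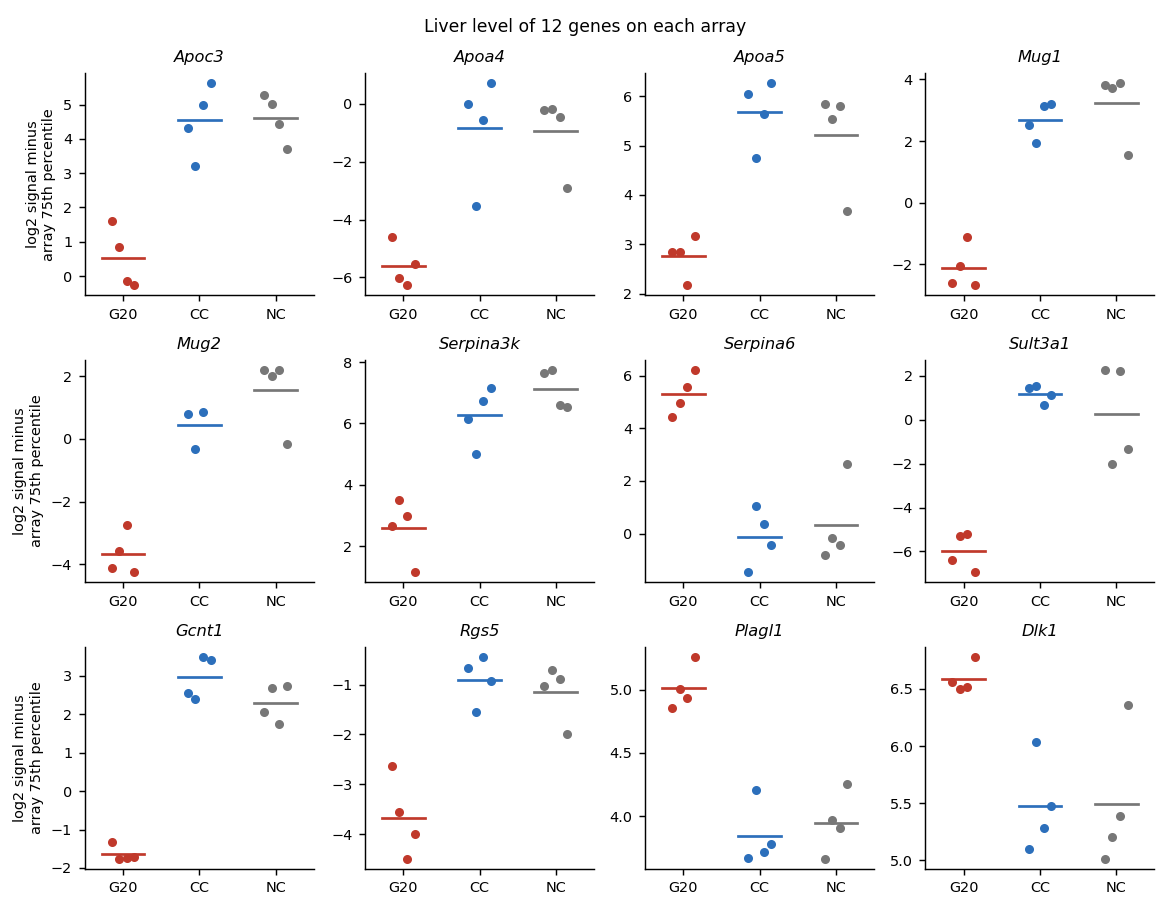
Level (log2 signal minus the 75th percentile of the array) of 12 genes on each liver array of G20, CC and NC; each point is an array and each line a group mean, and Mug2 has a value on 3 of 4 CC arrays. For these 12 genes the G20 arrays lie apart from all CC and all NC arrays, below them for 9 genes and above them for Serpina6, Plagl1 and Dlk1.

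Genes higher in G20 than in both other groups by every probe were mostly of smaller size, by the mean over the probes of a gene. Plagl1, an imprinted, paternally expressed zinc finger gene that restrains growth of cells and acts in a network of imprinted fetal growth genes, read 4.85, 5.01, 4.93 and 5.26 in G20, against 3.67, 4.2, 3.71 and 3.78 in CC and 3.66, 3.97, 3.90 and 4.25 in NC. The G20 arrays lay above all others. It rose by 1.17 ± 0.15 (limma adjusted p = 8.78e-05) and by 1.09 on the second probe. Bmp7, a bone morphogenetic protein, rose by 1.34 and 1.25 on its 2 probes, and differed by 0.08 with normexp. Zfp36, which destabilises messenger RNA of inflammatory genes, rose by 1.02 and 1.66. Ogg1, a glycosylase that removes oxidised guanine from DNA, rose by 0.79, Tspyl2, an X-linked nucleosome assembly gene, by 0.64, and Rbbp9, a serine hydrolase, by 1.13. Gm3696 and Prss50, a testis serine protease, rose by 1.64 and 1.95 from levels near background, and their differences were -0.22 and -0.37 with normexp. Prss50 was not well above background on any CC array, so its rise was at least 3.6-fold, in the processed signal alone. Against NC these 7 genes were 0.51 to 1.84 higher, but of the 7 only Zfp36 and Rbbp9 kept their call against CC with normexp.

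Most of the largest rises by different probes, ranked by the mean over the probes of a gene, had another pattern. In it G20 was called higher than CC and, by the brightest probe, not higher than NC. Ift140, which encodes a protein of transport within cilia, read 2.97, 3.23, 3.20 and 3.07 in G20, against 0.03, 0.30, 0.10 and 0.03 in CC and 3.07, 2.99, 3.1 and 0.09 in NC. CC arrays and NC replicate 4 lay near 0, and the others near 3. The rise was 3.0 ± 0.54 (limma adjusted p = 0.000885). Disc1, a scaffold gene studied in the brain, rose by 3.23 against CC and differed by -0.10 from NC. Col2a1 (cartilage collagen), Ppp1r13l (an inhibitor of p53), Rarg (a retinoic acid receptor), Vav2 (a guanine nucleotide exchange factor) and Ear6 (an eosinophil ribonuclease) rose by 1.62, 2.19, 2.13, 1.89 and 1.20 against CC, and were not called against NC. For Rarg, not well above background in CC, the rise was at least 4.0-fold. Fcrls, of the Fc receptor-like family, rose by 2.01, and Lrrk1, a kinase, by 2.02, at least 3.87-fold since CC was not well above background. Lrrk1 had a G20 minus NC difference of 1.35 that did not pass. Fcrls had 0.59 against NC by its brightest probe, which did not pass, and 0.89 by the other, which did (limma adjusted p = 0.0163). Hsd3b2, a steroid dehydrogenase gene, rose by 0.97 and 2.3 on its 2 probes against CC, and the same probes differed from NC by -0.90, which passed, and 0.06, which did not. Rpl35a, a ribosomal protein, rose by 0.68 and 2.80 on its 2 probes. Of these 11 genes, the 7 Disc1, Col2a1, Lrrk1, Ppp1r13l, Fcrls, Rarg and Ear6 lost their call with normexp. For Col2a1, Lrrk1 and Rarg the difference also changed sign. The at-least folds of Lrrk1 and Rarg therefore hold for the processed signal alone.

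Genes with 1 probe showed this pattern too. Olfr1153, an olfactory receptor, Vmn1r46 and Vmn1r192, vomeronasal receptors, Spaca4, a sperm acrosome gene, and 1810008I18Rik were 3.77 to 4.82 higher in G20 than in CC, and 0.42 or less from NC. Olfr1153 and Vmn1r192 were not well above background on any CC array, so their rises were at least 27.3-fold and 13.7-fold. Vmn1r192 and 1810008I18Rik lost their call with normexp, and 1810008I18Rik under 9 of the alternatives. Dnajb8, a testis chaperone, read -5.08, -6.31, -5.89 and -5.67 in G20, against 0.93, 0.93, 1.28 and 1.6 in CC and -5.85, -5.84, -3.90 and -5.74 in NC, and was well above background on 0 of 4 G20 and 4 of 4 CC arrays, at least 115-fold lower in G20. Prdm16, a transcription regulator, fell by 3.77 against CC, or by 2.07 with normexp. It was measurable above background on 1 of 4 G20 arrays, so the size is uncertain. Its G20 minus NC difference of -1.43 did not pass. Neb, for the muscle protein nebulin, fell by 2.11 and 2.0, with CC arrays at -0.02, -2.64, -2.08 and -2.59. The summed signal of 20 muscle markers was 11.4 to 31.7 on the G20 arrays, against 310.5, 71.1, 8.82 and 8.51 on the CC arrays, and the part of muscle in the Neb difference was not tested. Mid1, an X-linked ubiquitin ligase, fell by 1.05 and 3.02 on its 2 probes, and Eif4ebp3, a translation repressor, by 2.08 and 1.96. Eif4ebp3 was also 1.05 lower than NC, and Mid1 was not called there.

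Imprinted genes moved in both directions. Of 25 measured paternally expressed genes 8 rose and 3 fell (median 0.19), and of 26 maternally expressed genes 8 rose and 5 fell (median 0.07), beside 23.7% and 21.7% of all genes. Against NC 6 paternally expressed genes rose and 2 fell, and 1 maternally expressed gene rose and 2 fell, where 3.93% and 2.9% of all genes did. Besides Plagl1, some imprinted genes were also called in the same direction against NC by the brightest probe. They included Dlk1, Cdkn1c, Impact, Mcts2, Zrsr1 and Peg12 among the rises, and Snrpn, Snurf and Kcnq1 among the falls. The second probes of Dlk1, Snrpn and Kcnq1 gave 1.08, -1.18 and 0.15 against NC, none called. Dlk1, a paternally expressed inhibitor of Notch signalling and a fetal hepatocyte marker, read 6.56, 6.5, 6.52 and 6.78 in G20, against 5.10, 6.03, 5.28 and 5.47 in CC and 5.01, 5.20, 5.38 and 6.36 in NC. G20 lay above every other array, though by little over NC replicate 4, and the rise was 1.12 ± 0.27 (limma adjusted p = 0.00554), with 1.16 by the second probe. Cdkn1c, a brake on cell division and fetal growth expressed from the maternal allele, rose by 1.22 ± 0.35 against CC, while NC ranged widely enough (4.39, 4.37, 4.43 and 6.18) for 1 array to lie among G20. Impact, a regulator of translation under amino acid shortage, rose by 0.88, Mcts2, a retrogene, by 0.53, Zrsr1, a splicing factor retrogene, by 0.47, and Peg12 by 0.85. Zrsr1 and Peg12 lost their calls with normexp. Snrpn, which encodes a spliceosome protein, fell by 1.44 ± 0.36 (adjusted p = 0.00732), and Snurf, which shares its transcript, by 1.38. Of the Snrpn levels in G20, -0.28, -2.06, -2.03 and -1.74, the first lay among the CC values of -0.69, -0.27, 0.53 and 0.06. Kcnq1, a potassium channel, fell by 0.80 on its brightest probe, with -0.08 on the other.

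Further imprinted genes were called against CC and, by the brightest probe, not against NC. Igf2, the paternally expressed fetal growth factor, read 7.70, 7.72, 7.93 and 7.61 in G20, against 6.07, 6.25, 6.37 and 6.46 in CC and 7.71, 7.77, 7.64 and 7.69 in NC. The rise of 1.45 ± 0.10 against CC (limma adjusted p = 6.95e-07; 0.82 by the second probe) stood beside a difference of 0.04 from NC. H19, its maternally expressed neighbour, rose by 0.32 against CC, with -0.06 by its second probe and -0.18 with quantile normalization. Sfmbt2, a Polycomb gene, fell by 1.64 against CC and differed by -0.25 from NC. Ascl2, a trophoblast transcription factor, rose by 1.45, was 0.57 from NC and was -0.71 with normexp. Rian, a noncoding RNA of the Dlk1 domain, rose by 1.04 ± 0.39 (adjusted p = 0.045), and its G20 minus NC difference of 1.11 was as large and did not pass. Gnas, a G-protein subunit gene, rose by 0.44, with -0.04 to 1.07 over its other probes. Against NC its brightest probe gave 0.23, which did not pass, and of the other 3 the probes at 0.63 and 1.20 were called. Mest, Peg3 and Igf2r, 3 classic imprinted genes, had differences of -0.02, -0.32 and 0.01 that did not pass.

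The machinery of chromatin and DNA methylation showed no common direction. Of 44 measured genes 12 rose and 9 fell (median 0.02), about the 23.7% and 21.7% of all genes. Against NC 1 rose and 0 fell, where 3.93% and 2.9% of all genes did. Dnmt3b, a de novo DNA methyltransferase, fell by 0.71 ± 0.12 (limma adjusted p = 0.000483). Dnmt1, the maintenance methyltransferase, had a difference of 0.30 (adjusted p = 0.0605), and Dnmt3a one of 0.04. Hdac3, a histone deacetylase, rose by 0.65, and Trim28, a corepressor that guards imprints, by 0.46. Against NC these 3 genes differed by -0.36, 0.27 and -0.07, none called. Of 24 telomere genes 5 rose and 5 fell (median 0.00), again near the shares of all genes, and against NC 2 rose and 0 fell. Terc, the telomerase RNA, fell by 1.59 ± 0.34 (adjusted p = 0.00267), with G20 at 0.07 from NC and in brain a like difference of -1.72. Dkc1, a telomerase RNA-binding protein, rose by 0.75 and was not called with normexp, and Tert, the catalytic subunit, had a difference of -0.01. Of 10 genes of the X chromosome list, 2 rose and 3 fell, and 0 were called against NC. Xist, the RNA that silences an X chromosome in females, rose by 0.36 ± 0.11 (adjusted p = 0.0205) by its brightest probe, while its other probes gave -0.02, -0.28 and -0.37, so no direction is given for it. Xlr4b, of an X-linked lymphocyte-regulated family with imprinted members, rose by 1.36 against CC and had a G20 minus NC difference of -0.52 that did not pass.

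Endothelial markers, and those of stellate cells and fibroblasts, were lower in G20 than in CC. Of 28 endothelial genes 0 rose and 21 fell (median -0.51), and of 34 stellate cell and fibroblast genes 2 rose and 20 fell (median -0.55), against 21.7% of all genes. Stab2, a scavenger receptor of sinusoidal endothelium, fell by 1.73 (-0.78 against NC, not called), and Lyve1, a hyaluronan receptor of the same cells, by 0.97 on its brightest probe, with -0.15 on the other. Ngfr, the nerve growth factor receptor of stellate cells, fell by 1.68, Mgp, matrix Gla protein, by 1.56, and Thy1, a fibroblast surface protein, by 1.20. Against NC, 0 endothelial genes rose and 3 fell (median -0.19), and 1 stellate gene rose and 6 fell (median -0.16), including Lyve1, Ngfr, Mgp and Thy1. With normexp 2 endothelial and 11 stellate genes were lower (medians -0.18 and -0.38). The summed endothelial signal was 85.7 to 103 on the G20 arrays, against 132 to 154 on the CC arrays and 97.2 to 110 on the NC arrays. Kupffer cell and macrophage markers showed no such fall against CC, with 3 rises and 5 falls among 27 (median -0.09). Neutrophil and granulocyte markers had 12 rises and 5 falls among 25 (median 0.37), beside 23.7% and 21.7% of all genes. Against NC the Kupffer list had 1 rise and 0 falls, and the neutrophil list 0 rises and 2 falls. Over all genes 3.93% rose and 2.9% fell against NC. In bulk tissue, fewer cells of a type and less RNA per cell cannot be told apart. Interferon response genes fell too. Of 41 measured 1 rose and 21 fell (median -0.58), and against NC 0 rose and 6 fell (median -0.35). With normexp 1 rose and 4 fell against CC (median -0.36). Isg15, a ubiquitin-like protein induced by interferon, fell by 2.12 ± 0.32 (limma adjusted p = 0.000247) and was 1.33 lower than NC, and Oas3, an antiviral synthetase, fell by 1.91, with -0.61 against NC, not called. In brain the interferon list's median of G20 minus CC was -1.07.

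Counts for bright housekeeping genes depended on the processing. Of 43 ribosomal protein genes 25 rose and 2 fell (median 0.33), and of 45 oxidative phosphorylation genes 18 rose and 2 fell (median 0.24), against 23.7% of all genes rising. Against NC, 0 genes of either list were called, with medians of 0.04 and 0.10, and in brain the medians of G20 minus CC were -0.63 and -0.55. Rps4x and Rplp0, ribosomal subunit proteins, rose by 1.59 and 1.65, and Cox7c, a cytochrome oxidase subunit, by 1.75. Rplp0 shows how far probes could part, with -0.38 and 0.14 on its other probes. Of 20 ribosomal genes with at least 2 probes, 6 had every probe called in 1 direction and 4 had probes called in opposite directions. The ribosomal and oxidative phosphorylation medians were 0.03 and 0.09 with quantile normalization, 0.19 and 0.11 with median centring (all genes -0.15), and 0.88 and 0.72 with normexp (all genes -0.10). Immediate early genes, which respond to stimuli within minutes, had 8 rises and 0 falls among 27 (median 0.41), and 3 rises and 0 falls against NC (median 0.63). Over all genes 3.93% rose against NC. Atf3, a stress-induced transcription factor, rose by 2.01 ± 0.57 (limma adjusted p = 0.013), and Nr4a1, a nuclear receptor, by 1.6, with 1.90 and 1.06 against NC, neither called. Klf2, a Kruppel-like factor, rose by 3.16 by its brightest probe and 0.29 by the other, with G20 at 0.16 from NC.

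**Figure D5:**
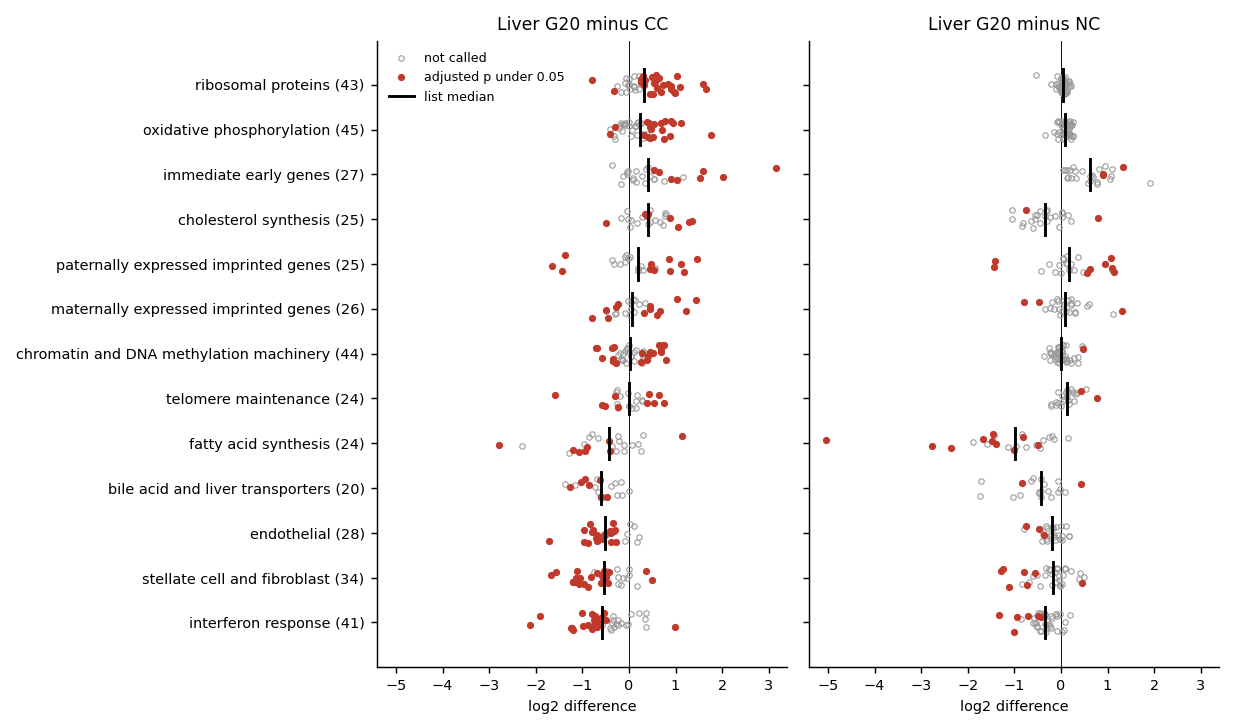
Log2 difference of each measured member of 13 gene lists, for G20 minus CC (left) and G20 minus NC (right) in liver; filled points passed an adjusted p under 0.05, vertical lines are list medians and the number of measured genes stands in brackets. Endothelial, stellate and interferon lists have medians of -0.51, -0.55 and -0.58 on the left and -0.19, -0.16 and -0.35 on the right.

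Cell types that a liver sample can bring along were measured as well. Of 23 listed exocrine pancreas markers 12 passed the filter, at a median level of -3.37. Of these 5 rose and 0 fell against CC (median 0.65), beside 23.7% and 21.7% of all genes. Dim genes rose more often. Of the 1666 dimmest genes (median level -4.26) 676 rose and 139 fell. Of the next 1665 (median level -3.19) 469 rose and 268 fell. The 5 rises are therefore not set apart from those of dim genes. With normexp 1 marker rose and 1 fell (median -0.66). The summed signal of the 12 markers was 12.8 to 28.1 on the G20 arrays, against 5.30 to 7.94 on the CC arrays and 6.61 to 10.8 on the NC arrays. Of 20 listed brain markers 5 passed the filter, at a median level of -3.1. All 5 fell against CC, beside 21.7% of all genes, and against NC 0 rose and 0 fell. A marker kept through the CC arrays alone would tend to be lower in G20 by that selection, so no conclusion is drawn. The summed signal of the 5 markers was 4.65 to 4.92 in G20, against 6.70 to 9.62 in CC and 4.82 to 5.49 in NC. Amy2a5, a pancreatic amylase gene, rose by 2.0 ± 0.30 and was 1.64 higher than NC. The summed signal of 29 erythroid markers was 1352 to 1437 in G20, against 557 to 1089 in CC and 1280 to 1392 in NC. Gene by gene, 7 of these markers rose and 8 fell against CC (median 0.05). A spot left out as an outlier adds nothing to any summed signal given here. A bright gene without a value on an array thus lowers the sum of that array. The part of such gaps in the low CC sums was not tested. The 33 mature hepatocyte markers had 9 rises and 7 falls, and the 20 fetal hepatocyte markers 8 rises and 2 falls, beside 23.7% and 21.7% of all genes. Against NC they had 0 rises and 5 falls, and 1 rise and 2 falls, where 3.93% of all genes rose and 2.9% fell. Afp, alpha-fetoprotein, rose by 0.89 ± 0.08 (limma adjusted p = 8.34e-06), Alb by 1.43 and Ttr, transthyretin, by 0.49, while against NC the differences were 0.10, 0.13 and -0.64, of which that of Ttr was called. The part of these cell types in the results above was not tested.

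The same contrast was available in brain, and CC arrays of both tissues were scanned in 1 session. In brain 69.1% of genes were called in G20 minus CC. Of 14969 genes measured in both tissues, 7895 (52.7%) had a different G20 minus CC in liver and in brain by limma's interaction term. G20 livers and G20 brains were scanned 49 days apart, so session entered this difference too. Snrpn and Snurf fell in liver and were higher by 0.86 and 1.07 in G20 brain. Plagl1 was higher in both tissues, more so in brain (1.95), and Impact was higher by 0.66 in brain. Rgs5, Ddo, Bmp7, Dlk1 and Cdkn1c differed from brain by the interaction term, with brain values of 0.08, -0.27, -0.96, -0.04 and -0.03.

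Among genes whose probes disagreed, the 4 with the largest differences were Slc4a7, Rusc1, Elf4 and Eef1a1. Eef1a1, for the abundant translation elongation factor, gave 2.08 on one probe (3 of 4 G20 arrays measured) and -0.32 on another, both called by limma (adjusted p = 1.5e-07 and 0.0112). Rusc1, a signalling adaptor, gave 3.39 and -0.34, Slc4a7, a bicarbonate transporter, 4.41, -0.69 and -0.23 (the last not called), and Elf4, an ETS transcription factor, -2.94 and 0.85. Against NC all 4 genes lay within 0.77 by the brightest probe, and none was called.

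Finally, the arrays of G20 were not shown to be more or less alike than those of CC. The root mean square log2 distance between an array and the mean of its 3 group mates was 0.307 ± 0.086 in G20, 0.385 ± 0.060 in CC and 0.355 ± 0.035 in NC (SD, n = 4 arrays each). G20 and CC did not differ by an exact two-sided permutation test over 70 splits (p = 0.171, smallest possible 0.0286). G20 replicate 1 lay farthest from its group, at 0.418, and replicate 2 nearest, at 0.210.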

How the data were processed

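Liver and brain of newborn mice were hybridised to single-colour Agilent arrays, and the 8 G20 and CC liver arrays were compared with 4 NC liver arrays in the fit. Per the file headers, Agilent Feature Extraction 9.5.3.1 produced the spot intensity, with background subtracted and detrended and low values replaced by surrogates, and the files place probes on mm8. The deposited flags (0 or 1 per spot) for signal well above background, saturation and outliers are the scanner software's. The authors' deposited matrix holds a second intensity per probe, with a scaling that no label or header describes.

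From these, log2 processed signal minus each array's 75th percentile was computed, leaving out control and outlier spots. A probe was kept when well above background on all 4 G20 or all 4 CC arrays, and a gene was read by its probe with the highest mean. The 12 liver arrays were fitted with limma 3.58.1 in R 4.3.3, with Benjamini-Hochberg adjustment over all genes. The step was tested on simulated data. Genes named were the 12 highest and 12 lowest with at least 2 agreeing probes, the 6 highest and 6 lowest with 1 probe, up to 4 members per direction of each gene list, and the 4 largest disagreements between probes. The rule as written also asked for a call in the matrix, which left 0 genes, so that condition was dropped. The members and lists were chosen with earlier results of these data known. Zpr1, Sik3, A2m and other cluster neighbours were named by position. Alternatives were quantile, median and normexp (offset 50) processing, other filters, the 8 arrays alone, the replicate number as a block, the mean of probes, the matrix, and each array left out. At-least folds set the brighter group against the dimmest measurable signal of each dim array. The number of arrays limits the precision.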

Additional observations from a re-analysis of the deposited data

Results flagged for a closer look

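On 8 occasions 1 array stood far from the other 3 of its group, where chance alone gives about 1 in 20 of the 238 groups of 4 looked at. G20 replicate 1 was high for Lrrk1 (-2.88, the others -3.20 to -3.15), Gcnt1 (-1.31, the others -1.76 to -1.72) and Snurf (-1.66, the others -3.42 to -3.13). G20 replicate 4 was low for Serpina3c (-1.99, the others -0.31 to 0.01). CC replicate 1 was high for Rusc1 (0.42, the others -0.64 to -0.48) and Acly (0.61, the others -0.09 to -0.03). CC replicate 2 was low for 1810008I18Rik (-5.58, the others -4.33 to -4.13), and CC replicate 4 for Hdac3 (0.48, the others 0.73 to 0.76).

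For 49 named genes G20 minus CC differed between liver and brain by limma's interaction term, beside 52.7% of all genes. The values below are the liver difference minus the brain difference in log2 units. Among genes that fell in liver, it was -5.34 for Dnajb8, -2.85 for Rgs5, -2.73 for Ddo, -2.68 for Eif4ebp3, -2.36 for Mbl2, -2.22 for Elf4, -2.09 for Thrsp, -1.67 for Me1, -1.31 for Socs2, -0.85 for Mgp and -0.80 for Igfbp5. Among imprinted genes it was -2.45 for Snurf, -2.30 for Snrpn, -1.70 for Sfmbt2, -0.77 for Plagl1, -0.65 for Kcnq1, 0.72 for Mcts2, 1.16 for Dlk1, 1.25 for Cdkn1c and 1.44 for Igf2. Plagl1 was higher in G20 in both tissues, and its value says that the brain difference was the larger.

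Among genes that rose in liver relative to CC, it was 4.29 for Rusc1, 4.10 for Olfr1153, 3.46 for Ift140, 3.1 for Ppp1r13l, 3.02 for Disc1, 2.97 for Vmn1r46, 2.70 for Col2a1, 2.60 for Spaca4, 2.39 for Fcrls, 2.29 for Bmp7, 1.94 for Rarg, 1.41 for Vav2 and 0.58 for Tspyl2. For secreted and metabolic genes it was 2.83 for Alb, 2.42 for Afp, 1.07 for Hmgcs1 and 0.96 for Acly, and for response genes 3.21 for Klf2, 1.90 for Nr4a1 and 1.83 for Atf3. For translation and respiration genes it was 2.28 for Eef1a1, 1.93 for Rplp0, 1.80 for Cox7c, 1.43 for Rps4x and 0.79 for Rpl35a, and for chromatin and X-linked genes 1.63 for Xlr4b, 0.36 for Trim28, 0.35 for Hdac3 and -0.61 for Dnmt3b.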

How the results depend on the processing

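The count of 7567 genes was 2270 with normexp, 15158 with no filter (4070 higher, 11088 lower), 31 in the deposited matrix (2 higher, 29 lower) and 1629 when at least 2-fold was asked for. Leaving out an array gave 6449 to 7599. The matrix count was 11 with the replicate block and 0 over probes with values on all 8 arrays, and 17 to 34 with an array left out, the lowest without CC replicate 1. Genes called by both sources numbered 0 to 1, the 1 without CC replicate 4. With normexp, 86 genes had every probe in agreement and 18 had probes opposed, and 2989 differed between liver and brain. In the processed signal these 3 counts were 577, 564 and 7895, and with an array left out 432 to 622, 413 to 543 and 7478 to 7947. The spread difference was -0.399 with normexp (exact permutation p = 0.0286, the smallest possible). Its size leaned on CC replicate 4, at 1.15. The other CC arrays lay at 0.415 to 0.471 and the G20 arrays at 0.147 to 0.312. Same-numbered G20 and CC arrays did not deviate together (r from -0.224 to -0.00289), and the replicate block gave 6996 calls in the scanner values.

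In the matrix, whose CC values lie on the G20 level, 51 of 111 named genes changed sign: Disc1 -0.021, Col2a1 -0.077, Fcrls -0.12, Gm3696 -0.41, Vav2 -0.082, Apoc3 0.25, Rgs5 0.10, Apoa5 0.18, Serpina3k 0.17, Ddo 0.23, Gcnt1 0.10, Serpina4-ps1 0.46, Mid1 0.011, Eif4ebp3 0.00047, Vmn1r46 -0.33, Mug1 0.34, Apoa4 1.03, Prdm16 0.44, Ces3b 0.037, Tspyl2 -0.023, Slc4a7 -0.13, Rusc1 -0.17, Zrsr1 -0.073, Snrpn 0.20, Snurf 0.16, Peg12 -0.045, Gnas -0.011, Sfmbt2 0.15, H19 -0.033, Rian -0.048, Acly -0.16, Me1 0.049, Elovl5 0.051, Cyp51 -0.42, Hmgcs1 -0.14, Cyp2b9 -0.15, Ugt1a1 0.057, Serpina7 -0.11, Serpina3c 0.019, Socs2 0.030, Mgp 0.23, Thy1 0.034, Amy2a5 -0.19, Isg15 0.19, Klf2 -0.10, Dnmt3b 0.15, Terc 0.061, Rps4x -0.041, Ttr -0.10, Apoa1 0.042 and Serpina3m 0.025. With normexp 7 of 119 changed sign (Col2a1 -0.026, Lrrk1 -0.45, Rarg -0.40, Gm3696 -0.22, Prss50 -0.37, Ascl2 -0.71, Cyp2b10 -0.54) and 24 lost their call. H19 was -0.18 with quantile normalization, and Xist -0.078 by the mean of probes. The cause of these changes was not tested.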
